A study of Mus musculus with 3 samples.

Results

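BAFF and APRIL are related cytokines of the tumour necrosis factor family, and they act through a shared set of receptors on B-lineage cells. The gene set described here holds 5 of the 32285 genes in the count matrices: the ligand genes Tnfsf13b (BAFF) and Tnfsf13 (APRIL), and the receptor genes Tnfrsf13c (BAFF receptor), Tnfrsf13b (TACI) and Tnfrsf17 (BCMA). The genes were chosen by name, and their levels were read in 6 classes of immune cells that were gated on the raw counts of other genes. The cells were live CD45+ leukocytes of pancreatic islets, taken from female non-obese diabetic (NOD) mice of wild-type genotype, a strain that develops autoimmune diabetes. Each of the 3 libraries pooled cells of 2 to 3 untreated mice, given as 15 to 16 weeks old in the study's methods and 14 to 16 weeks in a figure legend, so the spread between libraries is a spread between pools. The libraries came from 2 experiments, and since the labels do not say which library belongs to which, a difference between experiments cannot be told apart from one between pools. In the largest class, the CD4+ T cells, the counts over genes of replicates 2 and 3 differed by a chi-square of 16.3 per degree of freedom. Replicate 1 differed from them by 53.9 and 60.9 in that class, and the other classes were not compared in this way. There is no second genotype, tissue or treatment, and the comparisons below are between cell classes of the same libraries.

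As background, BAFF binds the BAFF receptor and TACI, and APRIL binds TACI and BCMA. Signalling through the BAFF receptor sustains naive mature B cells by non-canonical NF-kB, whereas BCMA is the receptor known for the survival of plasma cells. Both ligands are made largely by myeloid and stromal cells, and both can be cleaved into soluble form.

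The 3 libraries held 5844, 9537 and 11566 cells, of which 5727, 9199 and 11216 had at least 1000 unique molecular identifiers (UMIs) and under 10% mitochondrial UMIs. The gates placed 53.9 to 60.6% of these in a class, and no cell fell into more than 1. B cells had at least 2 Cd79a UMIs, at most 2 Jchain UMIs and no Cd3e UMI, and were divided into Ighd+ (3625 cells with an Ighd UMI) and Ighd- (1146 cells without). Plasma cells (139) had at least 5 Jchain UMIs, an Mzb1 UMI and no Cd3e UMI. Macrophages (68) had at least 5 C1qa and C1qb UMIs, no Cd3e UMI and at most 1 Cd79a UMI. CD8+ T cells (3258) and CD4+ T cells (6729) had a Cd3e UMI and UMIs of their own co-receptor but none of the other. The barcode sequences shared by any pair of libraries numbered 12 to 29. Marker genes that were not used in the gates followed the class names for B cells, T cells and macrophages. The plasma gate was mixed, since the summed level of 6 B-cell markers there, 1255 CPM (UMIs of the gene per 1000000 UMIs of the class in a library), was near the 1423 and 1699 CPM of the B-cell classes, and 4 germinal centre B-cell markers summed to 287 CPM against 37 and 8.1 CPM.

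All 5 genes were placed on the mouse genome build GRCm38 (mm10). Tnfsf13b (ENSMUSG00000031497) lies at chr8:10006467-10039072 on the plus strand. Tnfsf13 (ENSMUSG00000089669) lies at chr11:69682846-69685784 on the minus strand, directly downstream of Tnfsf12 and inside the span of an antisense gene, Tnfsf13os. Tnfrsf13b (ENSMUSG00000010142) is on the same chromosome at chr11:61126755-61149372. Tnfrsf13c (ENSMUSG00000068105) lies at chr15:82221743-82224369 on the minus strand and Tnfrsf17 (ENSMUSG00000022496) at chr16:11313812-11320074 on the plus strand.

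The start sites were searched for an element to which interferon regulatory factors bind, because these factors act in both macrophages and plasma cells. The letters GAAA, any 2 bases and GAAA again, on either strand, occurred in 1131 of 32851 RefSeq promoter windows of GRCm38.p6 (3.44%), each running from 250 bases before a start to 50 after it. Of the 6 windows that belong to the 5 genes, a downstream start of Tnfsf13b and the start of Tnfrsf17 held a match, and both are printed with the matching bases in capitals. The related letters GGAA, any 2 bases and GAAA, which cannot match at the same position and strand, occurred in 2.72% of all windows and in none of the 6.
Tnfsf13b, the 30 bases before the downstream start, chr8:10006603-10006632, plus strand: atcttacaaaaactGAAAGTGAAAtgcgga
Tnfrsf17, the 150 bases before the start, chr16:11313659-11313808, plus strand, with the match read on the minus strand: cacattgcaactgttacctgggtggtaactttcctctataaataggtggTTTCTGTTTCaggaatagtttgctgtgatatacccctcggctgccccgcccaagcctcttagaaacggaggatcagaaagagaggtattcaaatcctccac
Both matches describe letters in a window, and no binding was measured.

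Among the 6 classes both ligand genes had their highest mean level in macrophages. Tnfsf13, the gene of APRIL, was detected in the macrophages of all 3 libraries at 68.7, 79.3 and 65.9 CPM (71.3 ± 7.04, mean ± SD, n = 3), from 13, 10 and 16 UMIs. In the other 5 classes its mean level was between 0.075 CPM in CD8+ T cells and 0.62 CPM in Ighd- B cells, from 1 to 10 UMIs a class. No macrophage library overlapped a library of any other class. A Tnfsf13 UMI was found in 35.4 ± 5.67% of macrophages, and in 6.72 ± 3.16% after every cell had been thinned to 1000 UMIs.

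Pooled over libraries, Tnfsf13 in macrophages was 370-fold the level in CD4+ T cells (95% Poisson interval 181 to 830) and 559-fold that in Ighd+ B cells (178 to 2828). Without replicate 3 the latter ratio was 1257, from 1 UMI in Ighd+ B cells. The ratio to CD8+ T cells rested on 1 UMI in the latter and was 1893 (320 to 76643). These intervals, like all others here, cover counting error only. In edgeR's quasi-likelihood fit the log2 difference was 8.36 (SE 0.72, adjusted p = 2.0e-08) against CD4+ T cells, 10.20 (SE 0.88, adjusted p = 2.3e-08) against CD8+ T cells and 8.82 (SE 0.80, adjusted p = 4.5e-08) against Ighd+ B cells. Tnfsf13 passed the filter on low counts through its macrophage libraries. Beside these calls, 36.3%, 37.3% and 37.5% of the 10990 genes tested passed the threshold of 0.05 in the same 3 comparisons, and the median log2 difference over all genes was -0.42, -0.42 and -0.44. Of the 4 BAFF and APRIL genes tested, 2, 2 and 3 passed. The Tnfrsf13c calls against T cells among them are limited by the gates, as given below.

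The neighbouring gene Tnfsf12, which encodes the cytokine TWEAK, was also highest in macrophages (123 ± 72.9 CPM, n = 3, 75 UMIs). Transcripts that read from Tnfsf12 into Tnfsf13 are annotated as a gene of their own, which the matrices do not list, and 3' counting cannot tell their last exons from those of Tnfsf13. The antisense gene Tnfsf13os had no UMI in macrophages, which allows up to 5.38 CPM over the 3 libraries.

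Tnfsf13b, the gene of BAFF, was less even between libraries. Its level in macrophages was 52.9, 0 and 24.7 CPM (25.9 ± 26.4, n = 3), from 10, 0 and 6 UMIs. Replicate 2 held only 10 macrophages, and its count of 0 allows up to 23.8 CPM. The macrophage libraries therefore overlapped those of every other class. Pooled over libraries, the macrophage level was 12.3-fold that of CD4+ T cells (6.83 to 20.8), 15.2-fold that of CD8+ T cells (8.10 to 27.1) and 68.8-fold that of Ighd+ B cells (29.4 to 170). Without replicate 1, which held 10 of the 16 macrophage UMIs, these ratios were 6.57, 8.76 and 47.7. Tnfsf13b did not pass the filter on low counts. In the same edgeR fit without that filter its log2 difference was 3.60 (adjusted p = 8.3e-09) against CD4+ T cells. It was 3.77 (adjusted p = 3.4e-09) against CD8+ T cells and 5.83 (adjusted p = 1.7e-15) against Ighd+ B cells. Of the 20482 genes in that fit, 4314, 4342 and 4408 were called in the same comparisons. The spread behind these p-values was estimated over the sums of all classes. They therefore do not measure the spread between the macrophage libraries, which ran from 0 to 52.9 CPM.

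T cells carried Tnfsf13b at a low level in all libraries. CD4+ T cells measured 1.31, 2.23 and 2.68 CPM (2.08 ± 0.70, 123 UMIs) and CD8+ T cells 2.02, 1.24 and 2.46 CPM (1.91 ± 0.62, 51 UMIs). The T-cell classes overlapped, with a ratio of 1.24 (0.884 to 1.75). Ighd+ B cells measured 0.62, 0.46 and 0.15 CPM from 10 UMIs, below every T-cell library, and the ratio of CD4+ T to Ighd+ B cells was 5.58 (2.94 to 11.9). Most Tnfsf13b UMIs of CD4+ T cells, 97 of 123, were in cells with no UMI of the B-cell gene Cd79a. Ighd- B cells measured 1.93, 1.60 and 1.40 CPM from 12 UMIs, 3.99-fold the Ighd+ level (1.58 to 10.3). Plasma cells held 2 Tnfsf13b UMIs, both in replicate 1. The summed level of 7 macrophage markers was 347 to 630 CPM in the libraries of Ighd- B cells. In those of Ighd+ B cells it was 97.4 to 124 CPM. Most of that sum was Apoe, at a mean of 463 CPM in Ighd- and 83.4 CPM in Ighd+ B cells. Lyz2, Csf1r and Cd68 were also higher on average in Ighd- B cells, whereas C1qc was at 0 against 1.42 CPM. Adgre1 was at 1.04 against 0.89 CPM, and Mrc1 was at 0 in both. The part of any of these genes in the Tnfsf13b ratio was not tested.

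**Figure D1:**
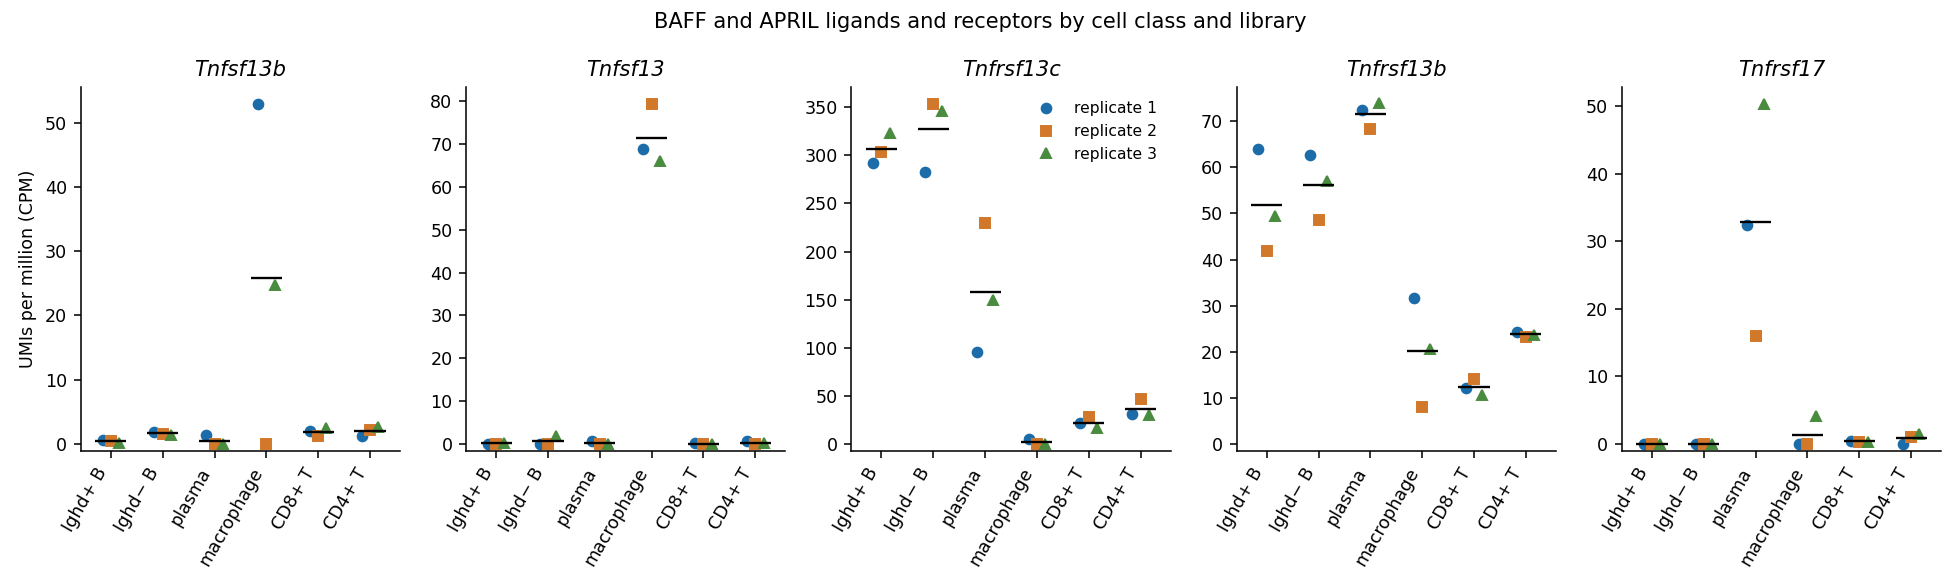
Level of each BAFF and APRIL gene in CPM (y axes, linear, a scale per gene) in the 6 cell classes (x axes), with a point per library and a bar at the mean of the 3 libraries. Both ligands were highest on average in macrophages, where Tnfsf13b ranged from 0 to 52.9 CPM, Tnfrsf13c was highest in the B-cell classes, and Tnfrsf17 was highest in plasma cells at 15.99 to 50.3 CPM.

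Macrophages with a UMI of Cxcl9, a chemokine gene induced by interferon-gamma, numbered 9, 9 and 11, and those without 22, 1 and 16. Tnfsf13b UMIs were 4, 0 and 0 in the former and 6, 0 and 6 in the latter. Tnfsf13 UMIs were 3, 10 and 12 against 10, 0 and 4. With 1 cell in an arm of replicate 2 and the order differing between libraries, no test was made.

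Among the receptors, Tnfrsf13c followed the B-cell classes. It measured 292, 304 and 323 CPM in Ighd+ B cells (307 ± 15.7, n = 3) and 283, 353 and 346 CPM in Ighd- B cells (327 ± 38.7). The B-cell classes overlapped. A Tnfrsf13c UMI was seen in 74.3 ± 6.61% of Ighd+ and 77.0 ± 7.52% of Ighd- B cells, and in 27.2 and 30.04% after thinning. The log2 difference between Ighd- and Ighd+ B cells was 0.06 (SE 0.17, edgeR, adjusted p = 1.0). None of the 4 genes tested differed between the B-cell classes, where 0.564% of all genes did. At an unadjusted p under 0.05 the count was also 0, with edgeR and with DESeq2. Tnfrsf17 had no UMI in either B-cell class, and Tnfsf13 had 4 in Ighd- and 3 in Ighd+ B cells. These counts are too low for a call, so the result rests on Tnfrsf13c and Tnfrsf13b.

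Plasma cells measured 95.6, 230 and 149 CPM of Tnfrsf13c (158 ± 67.4), below every B-cell library. The log2 difference was -0.71 (SE 0.18, edgeR, adjusted p = 0.0055) from Ighd+ and -0.78 (SE 0.19, adjusted p = 0.0038) from Ighd- B cells. Of the 4 genes tested 3 differed in each of these comparisons, beside 34.5% of all genes against Ighd+ and 29.7% against Ighd- B cells. Both Tnfrsf13c calls were lost without replicate 1, the lowest of the plasma libraries, with a log2 difference of -0.47 (adjusted p = 0.10) and -0.59 (adjusted p = 0.052). Without the library as a block they were also lost, at log2 differences of -0.66 (adjusted p = 0.087) and -0.73 (adjusted p = 0.066).

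Tnfrsf13b, which encodes TACI and binds both ligands, was highest in plasma cells. It measured 72.4, 68.3 and 74.1 CPM there (71.6 ± 2.97), against 62.6, 48.5 and 57.1 CPM in Ighd- B cells (56.1 ± 7.11) and 64.0, 41.8 and 49.4 CPM in Ighd+ B cells (51.7 ± 11.3). The plasma libraries lay above every B-cell library, and the B-cell classes overlapped. The log2 difference from Ighd+ B cells was 0.81 (SE 0.17, edgeR, adjusted p = 0.00081) and that from Ighd- B cells 0.70 (SE 0.17, adjusted p = 0.0046). The ratio of pooled CPM was smaller, 1.44 (1.24 to 1.67) and 1.28 (1.08 to 1.52). Immunoglobulin genes took 17.8 to 28.1% of plasma-cell UMIs and under 1% elsewhere, and with those genes removed the log2 differences were 0.79 and 0.69. Scaled to total UMIs, the call against Ighd- B cells was lost (log2 difference 0.34, adjusted p = 0.12), as it was without replicate 3 (0.68, adjusted p = 0.066).

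A Tnfrsf13b UMI was seen in 60.5 ± 11.2% of plasma cells against 22.3 ± 0.93% of Ighd+ B cells, but plasma cells had a median of 17245 to 22091.5 UMIs a cell and Ighd+ B cells 4213 to 6829. At 1000 UMIs a cell the shares were 6.93 ± 4.76% and 4.10 ± 1.23%. Neither Tnfrsf13b call held with thinned cells, where the log2 difference was 0.39 (adjusted p = 0.76) from Ighd+ and -0.08 (adjusted p = 0.96) from Ighd- B cells. The thinned plasma cells held 8 Tnfrsf13b UMIs, against 206 before thinning, so few counts were left to test.

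Tnfrsf17, the gene of BCMA, was found in the plasma gate and in neither B-cell class. Plasma cells measured 32.3, 15.99 and 50.3 CPM (32.9 ± 17.1), from 46, 11 and 38 UMIs, and 25.1 ± 8.91% of them carried a UMI. No UMI was found in 3625 Ighd+ or 1146 Ighd- B cells, which allows up to 0.125 and 0.416 CPM over the 3 libraries. Tnfrsf17 was thus at least 265-fold higher in plasma than in Ighd+ B cells (edgeR, adjusted p = 3.8e-07) and at least 79.7-fold higher than in Ighd- B cells (adjusted p = 6.4e-06). With any 1 library left out the bounds were 155 to 199 and 45.8 to 60.7, as fewer UMIs set a higher limit. The gene passed the filter on low counts through its plasma libraries. The B-cell gates admit at most 2 Jchain UMIs, and the plasma-gated cells with Tnfrsf17 were rich in Jchain, as given below. Such cells could not enter the B-cell classes, so these calls are limited by the gates.

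The 3 receptors divided the plasma gate in different ways. Cells with at least 100 Jchain UMIs numbered 42, 9 and 18 and the remaining plasma-gated cells 30, 24 and 16, a division chosen after the values were seen and given without a test. Tnfrsf17 measured 54.4, 44.9 and 83.8 CPM in the Jchain-high cells, and no UMI was found in the others. Tnfrsf13c measured 35.5, 49.0 and 28.7 CPM against 184, 329 and 330 CPM, the latter reaching the range of B cells in 2 of 3 libraries. Tnfrsf13b measured 91.0, 119 and 90.4 CPM against 45.1, 40.6 and 49.6 CPM. Every Jchain-high library was thus above every other for Tnfrsf17 and Tnfrsf13b and below for Tnfrsf13c.

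The Jchain-low cells carried germinal centre B-cell markers at a summed 737, 480 and 578 CPM, against 21.3, 4.09 and 11.03 CPM in Jchain-high cells. Their 7 plasma-cell markers summed to 720, 277 and 116 CPM, against 2447, 2313 and 1998 CPM. When the plasma class was restricted to Jchain-high cells, which left out replicate 2 with its 9 cells, the fitted log2 difference from Ighd+ B cells was -2.33 for Tnfrsf13c and 1.55 for Tnfrsf13b, as a description of 2 libraries.

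**Figure D2:**
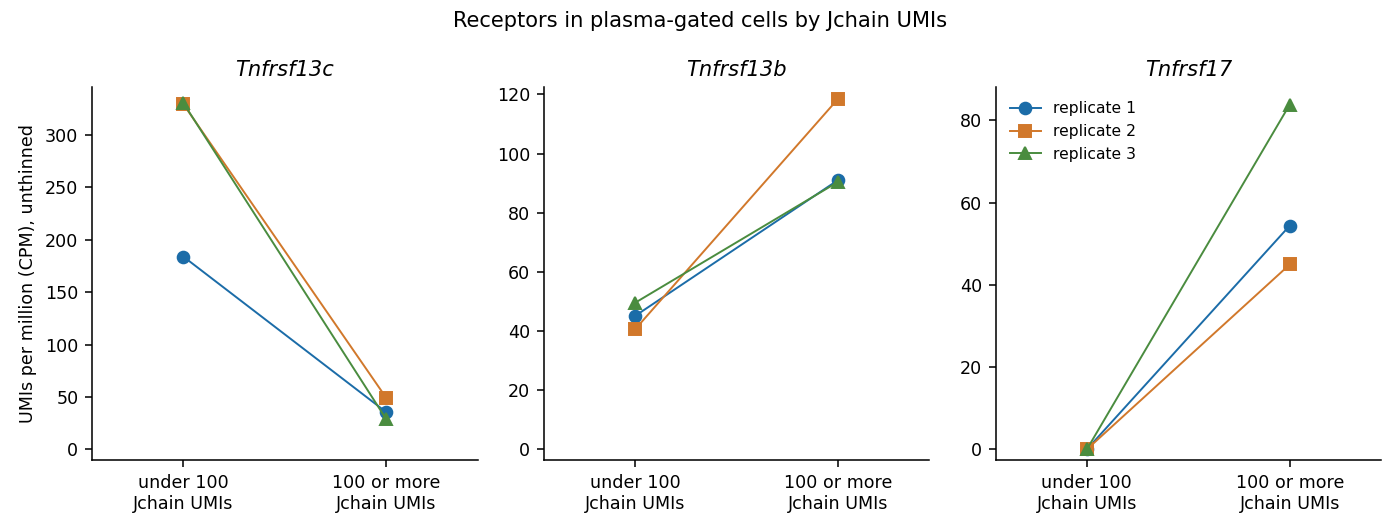
Receptor levels (y axes, CPM, linear, unthinned) in plasma-gated cells under and from 100 Jchain UMIs (x axes), with a line per library. In each library Tnfrsf13c was lower and Tnfrsf13b and Tnfrsf17 were higher in the Jchain-high cells, and Tnfrsf17 had no UMI in the other cells.

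By the heavy-chain constant gene with most UMIs, plasma-gated cells with Igha numbered 10, 4 and 8 and measured 56.1, 84.9 and 207 CPM of Tnfrsf17. Those with an Ighg gene (35, 9 and 19 cells) measured 10.8, 8.41 and 18.1 CPM and those with Ighm (27, 20 and 7 cells) 48.4, 7.90 and 11.2 CPM. The Igha cells were highest in every library, from 6 to 28 UMIs, but in replicate 2 all 6 UMIs lay in 1 cell. With so few cells no test was made. These groups span the whole gate, including the Jchain-low cells that held no Tnfrsf17 UMI. Tnfrsf13c measured 119, 277 and 358 CPM in the Ighm cells, 91.1, 168 and 95.1 CPM in the Ighg cells and 40.8, 184 and 51.8 CPM in the Igha cells. The part of Jchain-low cells in the order of Tnfrsf17 was not tested.

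T cells as gated carried UMIs of Tnfrsf13c, the BAFF receptor gene. CD4+ T cells measured 31.3, 46.7 and 29.6 CPM (35.9 ± 9.43) and CD8+ T cells 21.5, 28.4 and 16.5 CPM (22.2 ± 5.97), and every CD4+ library was above every CD8+ library. The log2 difference was 0.60 (SE 0.18, edgeR, adjusted p = 0.047), and 2 of the 4 genes tested differed between the T-cell classes, beside 9.25% of all genes. Every T-cell library was below every B-cell library, and CD4+ T cells differed from Ighd+ B cells by -3.26 (SE 0.19, adjusted p = 7.1e-11). In that comparison 3 of the 4 genes tested differed, beside 48.6% of all genes. The Tnfrsf17 call among them is limited by the gates, as given below.

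The T-cell signal of Tnfrsf13c sat mostly in cells that also held a UMI of Cd79a, the B-cell receptor component that the T-cell gates do not exclude. Cd79a was found in 1006 of 6729 CD4+ T cells (15.0%), and these held 1878 of 1938 Tnfrsf13c UMIs (96.9%; 95.8 to 97.4% by library). In CD8+ T cells, 334 of 3258 cells (10.3%) held 519 of 604 UMIs (85.9%). CD4+ T cells with Cd79a measured 117, 142 and 138 CPM of Tnfrsf13c, and those without measured 1.76, 1.82 and 1.26 CPM. The summed B-cell markers were 581, 774 and 632 CPM in the former and 11.4, 11.5 and 8.13 CPM in the latter. Cells with Cd79a were also deeper, with a median of 7598 to 12952 against 4121 to 6126 UMIs.

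With the stricter gates, which admit no UMI of Cd79a or Cd79b in T cells, the difference in Tnfrsf13c between CD4+ and CD8+ T cells turned round, to a log2 difference of -1.46 (adjusted p = 0.0017). Without Cd79a, CD4+ T cells measured 1.61 ± 0.31 and CD8+ T cells 3.53 ± 0.68 CPM. Natural killer (NK) cells measured 9.74 ± 1.76 CPM, from 14 UMIs. Their gate, like that of macrophages, admits cells with a Cd79a UMI, so these values are not gated alike. The original call was also lost in 6 settings in which the log2 difference stayed above 0. It was 0.59 without replicate 2 (adjusted p = 0.26), 0.53 without replicate 3 (adjusted p = 0.35), 0.60 with DESeq2 (adjusted p = 0.071), 0.60 without the library as a block (adjusted p = 0.41), 0.58 at 5% mitochondrial UMIs (adjusted p = 0.051) and 0.39 with thinned cells (adjusted p = 0.51).

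Tnfrsf13b, in contrast, remained in T cells without Cd79a. CD4+ T cells measured 24.3, 23.2 and 23.7 CPM (23.7 ± 0.54) and CD8+ T cells 12.1, 14.1 and 10.6 CPM (12.3 ± 1.74), without overlap, and the log2 difference was 0.83 (SE 0.15, edgeR, adjusted p = 0.0010). Cells with Cd79a held 468 of 1247 UMIs (37.5%) in CD4+ and 131 of 334 (39.2%) in CD8+ T cells. Without Cd79a the levels were 19.6 ± 1.40 CPM in CD4+ and 8.83 ± 0.88 CPM in CD8+ T cells, and every library of the former was above every library of the latter. With the stricter gates the log2 difference was 1.06 (adjusted p = 0.00029). The call was lost without replicate 3 (0.70, adjusted p = 0.13) and with thinned cells (0.66, adjusted p = 0.23). NK cells held 3 Tnfrsf13b UMIs in 252 cells (1.83 ± 1.95 CPM).

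CD4+ T cells also yielded 60 UMIs of Tnfrsf17, in 0, 22 and 38 by library, from 12 cells of which 1 held 29. All 60 were in cells with Cd79a. CD8+ T cells held 10 Tnfrsf17 UMIs (0.39 ± 0.055 CPM, n = 3) and macrophages 1. CD4+ T cells as gated were at least 9.08-fold above Ighd+ B cells (edgeR, adjusted p = 0.0036). The B-cell gates set an upper limit on Jchain UMIs, whereas the T-cell gates set none, so the classes were not gated alike for plasma-cell transcripts. With all 60 UMIs in cells with Cd79a as well, no conclusion about CD4+ T cells is drawn from this call. Without replicate 3 the bound was 4.53 and the call was lost (adjusted p = 0.070). With the stricter gates no such difference could be measured, as both classes were then at 0.

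**Figure D3:**
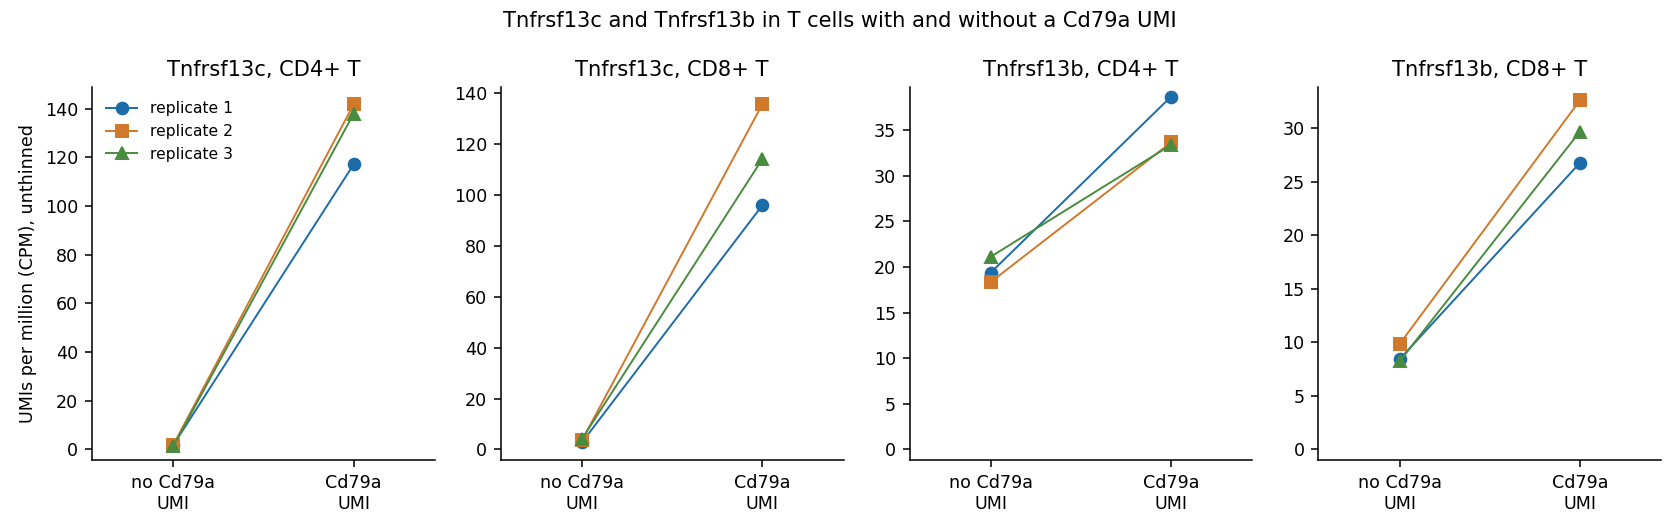
Tnfrsf13c and Tnfrsf13b (y axes, CPM, linear, unthinned) in CD4+ and CD8+ T cells without and with a Cd79a UMI (x axes), with a line per library. Tnfrsf13c was at 117 to 142 CPM in CD4+ T cells with Cd79a and at 1.26 to 1.82 CPM in those without, whereas Tnfrsf13b was at 18.3 to 21.1 CPM in CD4+ T cells without Cd79a.

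Macrophages had 1 UMI of Tnfrsf13c in 68 cells, and the level in Ighd+ B cells was 171-fold theirs (30.7 to 6752). The log2 difference was -7.43 (SE 0.57, edgeR, adjusted p = 4.7e-09) from Ighd+ B cells and -4.17 (SE 0.88, adjusted p = 0.00095) from CD4+ T cells. The latter turned to 1.02 with the stricter gates. Against CD8+ T cells it was -3.57 (SE 0.97, adjusted p = 0.0067), and this call was lost without replicate 1 (-1.47, adjusted p = 0.055) and with the stricter gates (-0.43, adjusted p = 0.83). The macrophage gate limits Cd79a UMIs and the T-cell gates do not, so the classes were not gated alike for B-cell transcripts. No conclusion about T cells is drawn from these Tnfrsf13c calls. Tnfrsf13b gave 31.7, 7.93 and 20.6 CPM in macrophages (20.1 ± 11.9), from 6, 1 and 5 UMIs. Those libraries overlapped both T-cell classes, with a ratio of 0.912 to CD4+ T cells (0.470 to 1.60), and were below every B-cell library. The log2 difference from Ighd+ B cells was -1.29 (SE 0.37, edgeR, adjusted p = 0.010). In 3 of 14 alternatives it was no longer past the threshold, at an adjusted p of up to 0.18. Among the 3 were the fit without replicate 3 (-1.28, adjusted p = 0.092) and the stricter gates (-0.997, adjusted p = 0.066).

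Within the B-cell classes, cells were divided by genes that mark B-cell states and thinned to 1000 UMIs. In B cells with a UMI of the proliferation genes Mki67 or Top2a, Tnfrsf13c measured 250, 225 and 254 CPM, against 344, 379 and 353 CPM in those without. The cycling cells were lower in 3 of 3 libraries, by a log2 difference of -0.56 ± 0.16. In Ighd- B cells with a UMI of Fcer2a (CD23, a marker of follicular B cells), Tnfrsf13c measured 412, 558 and 500 CPM against 350, 411 and 322 CPM without, higher in 3 of 3 libraries by 0.44 ± 0.20. The exact two-sided sign-flip test over 3 libraries gave p = 0.25 for each, the smallest it can give, and 0.83 after adjustment over the 10 divisions tested. Division of Ighd+ B cells by Cr2 (CD21) gave a log2 difference of 0.07 ± 0.16 for Tnfrsf13c, with 2 of 3 libraries higher.

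In CD4+ T cells with a UMI of Foxp3, the regulatory T-cell factor, Tnfrsf13b was higher in 2 of 3 libraries (log2 difference 0.47 ± 0.48, exact sign-flip p = 0.50, adjusted p = 0.83). The remaining 6 divisions, by Fcer2a, Cr2 and cycling genes for Tnfrsf13b, by Foxp3 for Tnfrsf13c and by Pdcd1 in CD8+ T cells for both, gave exact p-values of 0.50 to 1.0.

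Detection of Tnfrsf13c and Tnfrsf13b in the same cell was read as well. A Tnfrsf13b UMI was found in 23.8, 22.0 and 23.6% of Ighd+ B cells that had a Tnfrsf13c UMI and in 22.2, 19.2 and 18.1% of those that had none. After thinning to 1000 UMIs the shares were 6.52, 4.13 and 2.55% against 5.12, 3.56 and 3.32%. In CD4+ T cells the unthinned shares were 27.5, 30.2 and 29.1% against 10.2, 11.3 and 11.5%, where the cells with Tnfrsf13c are largely the deeper cells with Cd79a. After thinning they were 3.33, 0 and 0% of 30, 46 and 58 cells against 1.37, 1.59 and 1.76%, so the order turned in 2 of 3 libraries. These shares are given without a test.

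Over the 18 sums of class and library, the genes whose log2(CPM + 10) ran most like Tnfrsf13c were Ebf1 (Pearson r = 0.988), H2-Ob (0.987), Spib (0.985) and Bcl11a (0.982). Those most like Tnfrsf17 were Kdelr3 (0.988), Eef1akmt3 (0.984), Tram2 (0.980) and Bhlha15 (0.980). Tnfsf13 ran most like Igsf6 (0.999), Sh3pxd2b (0.998), Pf4 (0.998) and Slc7a2 (0.998), and Tnfrsf13b like Ero1lb (0.944), Rasgrp3 (0.934), Dennd5b (0.922) and Mef2c (0.916). The sums of a library share its depth and its mice, so these values describe likeness only. Tnfsf13b did not pass the filter and was not ranked.

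Other genes of the pathway were read in the same fit, from lists of processing enzymes and partners, adaptors and kinases, NF-kB genes, survival and apoptosis genes, and other TNF-family genes of B-cell help. In plasma cells as gated, Jchain-low cells included, 8 of 10 NF-kB genes were lower than in Ighd+ B cells and none higher. The median log2 difference was -1.22 beside -0.10 over all genes, of which 34.5% were called in either direction. Rel, the c-Rel subunit, measured 115 ± 56.0 CPM in plasma cells and 929 ± 192 CPM in Ighd+ B cells (-2.72, SE 0.25, adjusted p = 1.1e-07). Nfkb1, the precursor of p50, measured 50.9 ± 22.7 against 240 ± 25.4 CPM (-1.97, SE 0.21, adjusted p = 6.6e-07). With Jchain-high cells of 2 libraries as the plasma class 5 of the 10 were lower, with a median of -0.83 beside -0.31 over all genes. In that setting 3339 of 11801 genes were called in either direction.

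Of the 15 adaptors and kinases, 6 were lower in plasma cells and none higher (median -0.44), beside 34.5% of all genes called in either direction. Among the 6 were Traf1 (-1.80, adjusted p = 6.3e-06) and Birc3 (-1.16, adjusted p = 4.6e-05), which take part in TRAF complexes. With DESeq2 the count was 4, without the replicate block 3, scaled to total UMIs 10, and with Jchain-high cells of 2 libraries 7. Over all genes 1516, 1408 and 3546 of 10990 and 1805 of 11801 were called lower in these 4 settings. In the main fit 1834 of 10990 were, so the count scaled to total UMIs rose together with that over all genes. The list of 9 survival and apoptosis genes holds members of opposite roles, and 5 were higher and 1 lower (median 0.75). Of the 5, Bad (27.3 ± 2.31 against 11.5 ± 1.60 CPM, log2 difference 1.53, adjusted p = 5.4e-05) and Bak1 (25.5 ± 0.887 against 16.5 ± 1.27 CPM, log2 difference 0.97, adjusted p = 0.00078) promote apoptosis. The others were Bcl2l1, which opposes it (1.51, adjusted p = 0.013), and the survival kinases Pim1 (0.75, adjusted p = 0.00051) and Pim2 (0.91, adjusted p = 0.0061). Bcl2, which opposes apoptosis, fell by 1.19 (adjusted p = 0.00042). With Jchain-high cells of 2 libraries as the plasma class, 3 of these 9 genes were higher and none lower, so the Bcl2 call was lost. Mcl1, on which plasma cells are known to depend, measured 334 ± 21.2 CPM in plasma and 390 ± 18.1 CPM in Ighd+ B cells and did not pass the test. Of 8 processing enzymes and partners only Sdc1 was higher (4.07, adjusted p = 1.0e-07), the proteoglycan that binds APRIL and also marks plasma cells. Of 8 other TNF-family genes 2 were lower and none higher.

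In macrophages 8 of 10 NF-kB genes were higher than in Ighd+ B cells and 2 lower (median 1.03 beside -0.44 over all genes). Furin, a protease that releases both ligands, was higher by 2.52 (adjusted p = 1.1e-05), and Adam17, a sheddase, by 2.16 (adjusted p = 9.7e-08). With Tnfsf12 and Sdc1 these were the 4 of 8 processing enzymes and partners that rose, and none fell. Sdc1 had no UMI in the macrophages of replicate 1 and measured 71.3 and 78.3 CPM in the other libraries. Of the other lists, 3 of 15 adaptors rose and 2 fell, 4 of 9 survival and apoptosis genes rose and 2 fell, and 5 of 8 TNF-family genes rose and 1 fell, beside 37.5% of all genes called in either direction. Of the 4 that rose, Bax promotes apoptosis, and Mcl1, Bcl2l1 and Pim1 favour survival. Between Ighd- and Ighd+ B cells no gene of any list passed the test, beside 0.564% of all genes, so few calls were to be had there.

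**Figure D4:**
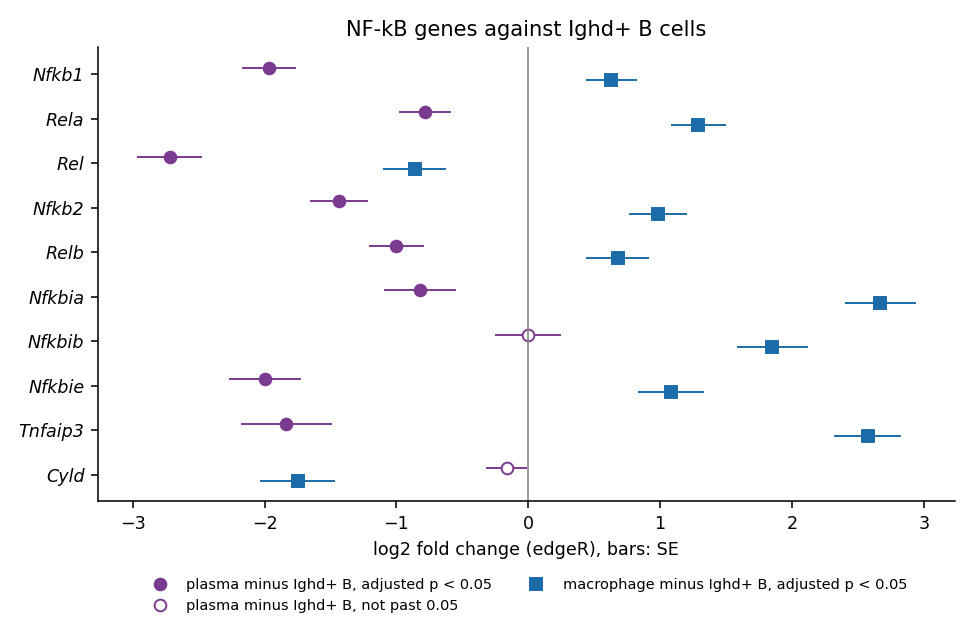
Log2 fold change against Ighd+ B cells (x axis, edgeR, bars are SE) of the 10 NF-kB genes (y axis) in plasma cells and macrophages, with filled points at an adjusted p under 0.05. In plasma cells as gated, Jchain-low cells included, 8 genes lay below 0 and passed the test, and in macrophages 8 lay above 0 and 2 below.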

How the data were processed

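Live CD45+ islet cells were profiled by droplet 3' sequencing (10x Genomics, v3 chemistry). Per the labels, the authors processed the reads with Cell Ranger 6.0.1 against mm10 and deposited, for each of the 3 libraries, a matrix of raw UMI counts by gene and cell, with no normalization. The cell classes were rebuilt here by gates on raw UMIs, and no doublet caller was run, which leaves doublets in the gates. The members and lists were chosen with earlier results of these data known.

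Per class and library, UMIs were summed (18 sums of at least 10 cells) and scaled to CPM. The sums held 126156 to 24979492 UMIs. edgeR 4.0.16 (R 4.3.3) was run with TMM, filterByExpr, the class and the library as a block, the quasi-likelihood test and Benjamini-Hochberg adjustment over 10990 genes, threshold 0.05. On simulated counts with a log2 change of 2 in 189 of 10319 genes, it recovered 91.0% for plasma against Ighd+ B cells with 5 false calls. For macrophages against CD4+ T cells it recovered 65.1% with 7. Apart from the changed genes the simulated classes shared a common mean profile, without shifts between libraries. These rates hold for that setting and do not carry over to the real comparisons, where far more genes differ. The block takes out shifts that all classes of a library share. The edgeR p-values therefore measure the spread left within classes between the 3 pools of 2 experiments, estimated over all 18 sums. Sums of the same library deviated together from their class means (mean r = 0.32 over 45 pairs, 0.036 to 0.84). Those of different libraries had a mean of -0.14 (-0.76 to 0.52). Centring each class on its own mean ties the latter value to the former, so it is no separate evidence. The classes within a library share their mice, so the library pairs the samples.

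Ratios of pooled CPM carry exact 95% Poisson intervals, and the level at 3 counts over the group stands for a count of 0. Tested divisions within a class used cells thinned to 1000 UMIs, a pseudocount of 1 CPM and an exact sign-flip test, with scipy 1.17.1. Divisions given without a test are in unthinned cells unless stated. Alternatives were DESeq2 1.42.0, RLE size factors, total UMIs without TMM, no count filter, no library block, other limits on mitochondrial share (5%) and UMIs (under 6000), stricter gates (no UMI of Cd3e, Cd3d, Cd79a, Cd79b, C1qa or C1qb in classes that these genes do not mark), removal of immunoglobulin genes, thinning, and leaving out each library. A plasma gate of 100 Jchain UMIs and the divisions by Jchain and Cd79a were added after the data were seen. Named genes were the 5 members, at most 5 pathway genes a list by mean CPM, and the 4 genes most like each member. Sdc1, Bcl2l1, Bad, Bak1 and Pim2, which rank lower in their lists, were named after their values were seen.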

Additional observations from a re-analysis of the deposited data

Results flagged for a closer look

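Cells outside the 6 classes also held UMIs of these genes, above the level of 3 counts that a count of 0 allows (0.0426 to 2.07 CPM). There are no control samples. NK cells (252, gated on Ncr1) held 12 Tnfsf13 UMIs, 8.29 CPM (95% Poisson interval 4.28 to 14.5), and 14 Tnfrsf13c UMIs, 9.67 CPM (5.29 to 16.2). Conventional dendritic cells (152, gated on Flt3 and H2-Ab1) held 27 Tnfrsf13c UMIs, 14.8 CPM (9.77 to 21.6), and 19 Tnfrsf13b UMIs, 10.4 CPM (6.28 to 16.3). Neutrophils (13, gated on S100a8 and S100a9) held 2 Tnfsf13b UMIs, both in 1 cell, at 42.4 CPM (5.13 to 153). That count is under the level of 3 counts.

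The 10760 cells in no class held 2342 UMIs of Tnfrsf13c (33.2 CPM), 1427 of Tnfrsf13b (20.2 CPM), 78 of Tnfsf13 (1.11 CPM), 66 of Tnfrsf17 (0.936 CPM) and 64 of Tnfsf13b (0.908 CPM). Those cells carried T-cell markers at a summed 1894 to 2411 CPM and B-cell markers at 146 to 228 CPM, and their part in these counts was not tested.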

How the results depend on the processing

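The 24 log2 fold changes of the 4 genes that passed the filter on low counts (not Tnfsf13b) were recomputed under 10 to 14 alternatives each, giving 272 values on the side of the threshold and in the direction reported, 21 that lost the call, 1 that gained it and 14 that changed direction. The differences of Tnfsf13 in macrophages and of Tnfrsf17 in plasma cells, each with 12 alternatives, kept their call in all of them. For Tnfrsf17 every alternative kept the limit of 2 Jchain UMIs in B cells, so none of them tests that gate. In the main fit both genes passed the filter through these classes, as given above. Neither gene passed the filter on low counts in thinned cells or under 6000 UMIs, so neither was tested there. The cause of each change was not tested.

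With cells under 6000 UMIs, where macrophages were left in replicate 1 only, assumed to vary like the other classes, and no plasma sum could be formed, Tnfrsf13c in macrophages differed by 0.95 from CD4+ and 0.77 from CD8+ T cells and CD4+ from CD8+ T cells by -0.18, and Tnfrsf13b in Ighd- from Ighd+ B cells by -0.27 (-0.011 at 5% mitochondrial UMIs). With the stricter gates, which left out the macrophages of replicate 2, Tnfrsf13c differed by 1.02 between macrophages and CD4+ T cells and by -1.46 between CD4+ and CD8+ T cells, and Tnfrsf13b by 0.53 between macrophages and CD4+ T cells (0.074 with DESeq2 and 0.073 with RLE size factors). With thinned cells Tnfrsf13b differed by -0.077 between plasma and Ighd- B cells and by -0.089 between macrophages and CD8+ T cells. Leaving out 1 library gave -0.0050 to 0.12 for Tnfrsf13c between the B-cell classes and -0.50 to 0.18 for Tnfrsf13b between macrophages and CD4+ T cells.

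Thinned cells left Tnfrsf13c and Tnfrsf13b to test. Of these 1 was called in plasma against Ighd+ and against Ighd- B cells and in macrophages against Ighd+ B cells. In macrophages against CD4+ and CD8+ T cells and between the T-cell classes 0 were called. Over all 6926 genes tested there, 640, 548 and 1514 were called in the first 3 comparisons and 1616, 1598 and 578 in the last 3. Under 6000 UMIs Tnfsf13b, Tnfrsf13c and Tnfrsf13b were tested. Between the T-cell classes 1 of them was called, Tnfrsf13b, beside 909 of 10719 genes. Macrophages were left there in replicate 1 only, with 6 Tnfsf13b UMIs in 18 cells, so no call is given for them. Without the count filter 5 of 5 were called in macrophages against Ighd+ B cells, beside 4408 of 20482 genes. Tnfrsf17 among the 5 rested on 1 UMI in macrophages and none in Ighd+ B cells. Between the T-cell classes 1 was called without the replicate block, with DESeq2 and at 5% mitochondrial UMIs, and 0 to 2 with 1 library left out. Over all genes the first 3 of these settings called 356 of 10990, 1056 of 10990 and 894 of 10997. The divisions by Cr2 and by cycling genes gave Tnfrsf13b differences of 0.29 and 0.37 in unthinned cells. With 1 library left out, the range was -0.31 to 0.19 for Tnfrsf13b by Fcer2a, -0.66 to 0.54 for Tnfrsf13b by cycling genes, -0.0057 to 0.15 for Tnfrsf13c by Cr2 and -0.043 to 0.79 for Tnfrsf13c by Pdcd1.

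Over all genes, the block moved the calls between CD4+ and CD8+ T cells from 356 to 1017 and between the B-cell classes from 21 to 62, where other settings gave 11 to 323. Without the count filter the T-cell classes differed in 1544 genes, and with 1 library left out in 365 to 1616. Thinning lowered the plasma calls from 3792 to 640 and from 3262 to 548, those of macrophages from 4121, 3992 and 4095 to 1514, 1616 and 1598, and those of CD4+ T against Ighd+ B cells from 5342 to 3142 and against CD8+ T cells to 578. Without replicate 3 macrophages gave 2694, 2611 and 2674 calls and plasma cells 2524 and 1898. Under 6000 UMIs macrophages were left with 1 library, so their calls are not given. Total UMIs moved the share of plasma calls that were higher from 51.6 and 52.2% to 26.9 and 24.0% and the median over all genes from -0.10 and -0.08 to -0.44 and -0.43, and moved CD4+ T calls from 52.9 to 65.0% and 66.7 to 77.9%. DESeq2 moved the macrophage shares from 46.0, 44.3 and 44.9% to 62.4, 57.3 and 57.9%. Macrophages, at 10 to 31 cells a library, limit the precision of both ligands.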
